A study of Mus musculus with 27 samples.

Results

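DNA methylation was examined at 10 genes that encode the metabolic nuclear receptors of the liver and one of their coactivators: Ppara, Pparg, Ppargc1a, Rxra, Nr1h3, Nr1h4, Nr0b2, Nr5a2, Nr1i2 and Nr1i3. The members are the measured positions within each gene's span on GRCm38 or within 5 kb on either side of it, provided that the position was listed in at least 2 of the 3 samples of every strain. This left 1705 positions of the 3538 listed in any sample at these genes, and of 1951655 positions in the genome that met the same condition. Positions were taken by gene name and coordinates, and the list of genes was drawn up with earlier results of these data known.

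The samples were liver hepatocytes, the parenchymal cells of that organ, from 27 female mice aged 12 weeks. They came from 9 inbred strains with 3 biological replicates each. The laboratory strains were A/J, DBA/2J, NZO/HlLtJ, NOD/ShiLtJ, 129S1/SvImJ and C57BL/6J, and the wild-derived strains were WSB/EiJ, CAST/EiJ and PWK/PhJ. No treatment is named in the labels and no strain served as a control. The study asked how epigenetic marks and gene expression vary with strain, and only its reduced representation bisulfite sequencing (RRBS) is used here, which cuts DNA with MspI and reads CpG-rich fragments.

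Nuclear receptors are transcription factors whose activity is set by small lipid-soluble molecules. In the liver they sense fatty acids, oxysterols, bile acids and foreign chemicals, and switch the genes that burn, store, export or detoxify them. Many of them bind DNA as a pair with RXRA, the product of Rxra, and recruit coactivators such as the product of Ppargc1a. DNA methylation is the addition of a methyl group to cytosine, in mammals mostly at CpG dinucleotides. CpG-dense starts of genes are usually free of it, CpG-poor sequence usually carries it, and levels between these extremes are often found where regulatory proteins bind.

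Each value below is a percent methylation: the share of reads at a position that were methylated, as deposited. The files give no read number, so the depth behind a single value is unknown and no counting interval can be given. The lists held 2904787 to 3156965 positions per sample. Strains were compared with a moderated F test over 9 strains, adjusted over the whole genome by the Benjamini-Hochberg method, for features whose mean lay more than 2.5 points from both 0 and 100%. A position or a 1 kb tile was called different when the adjusted p fell below 0.05 and the highest and lowest strain mean were at least 25 percentage points apart. For a gene start (within 1 kb of an annotated start) and a gene body (the rest of the span) the span had to be at least 10 points. Tiles, starts and bodies needed at least 5 positions. Values are means ± SD over 3 samples unless stated otherwise. The labelled cell type could not be checked, since only 3 of 10 hepatocyte marker genes had 5 or more positions at a start.

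The members lay mostly in unmethylated sequence. Of the 1705 positions, 1292 (75.8%) had a mean under 10%, 279 lay between 10 and 90%, and 134 were above 90%. Over all positions 60.8% were under 10%. Positions within 1 kb of a start averaged 2.81% (582 positions), those in gene bodies 31.3% (818 positions) and those in the flanks 4.85% (305 positions). Many of the body positions lie in dense stretches of low methylation inside Nr5a2 and Ppargc1a, which lower the body mean. Coverage of the genes was uneven, from 457 positions at Ppargc1a, 370 at Rxra and 222 at Ppara to 34 at Nr1i2, 32 at Nr1h4 and 17 at Nr0b2.

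**Figure D1:**
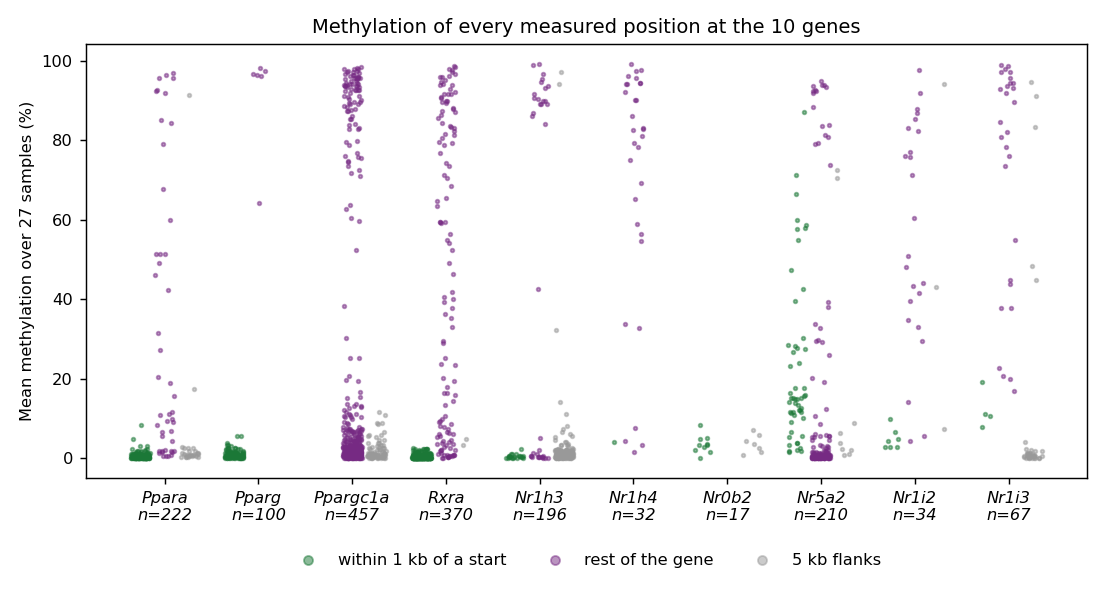
Mean methylation over 27 samples (y axis, %) of every member position, by gene (x axis, with the number of positions), for positions within 1 kb of a start, in the rest of the gene and in the 5 kb flanks. Starts of Ppara, Pparg, Rxra and Nr1h3 sit near 0, while those of Nr5a2 spread over most of the scale.

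Sequences upstream of the starts ranged from CpG-dense to CpG-poor. For 5 of the genes the 250 bases before a start are shown, 5′ to 3′ on the strand of the gene, from RefSeq promoter windows on GRCm38.p6. They were chosen to set a CpG-dense start free of methylation (Rxra, Ppara) beside the start with the widest strain difference (Nr5a2) and CpG-poor starts with no member position in the printed bases (Nr1h4, Nr1i3). Capitals mark CpGs that were member positions.
Rxra, chr2:27676951-27677200, plus strand: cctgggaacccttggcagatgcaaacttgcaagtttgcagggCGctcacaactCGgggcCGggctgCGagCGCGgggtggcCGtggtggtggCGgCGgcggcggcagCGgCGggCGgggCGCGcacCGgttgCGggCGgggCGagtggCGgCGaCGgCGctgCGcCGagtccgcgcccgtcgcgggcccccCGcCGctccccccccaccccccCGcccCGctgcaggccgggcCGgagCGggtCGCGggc
Ppara, chr15:85735526-85735775, plus strand: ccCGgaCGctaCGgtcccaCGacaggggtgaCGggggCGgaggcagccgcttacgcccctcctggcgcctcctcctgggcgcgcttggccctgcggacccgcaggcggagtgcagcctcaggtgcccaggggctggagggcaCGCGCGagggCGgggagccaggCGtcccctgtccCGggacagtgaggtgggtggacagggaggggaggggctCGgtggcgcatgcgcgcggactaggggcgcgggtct
Nr5a2, chr1:136953631-136953880, minus strand: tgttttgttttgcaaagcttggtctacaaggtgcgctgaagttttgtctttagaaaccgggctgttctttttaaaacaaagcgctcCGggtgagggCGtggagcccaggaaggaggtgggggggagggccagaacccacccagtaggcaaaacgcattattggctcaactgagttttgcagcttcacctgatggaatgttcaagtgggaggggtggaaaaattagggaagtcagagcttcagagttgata
Nr1h4, chr10:89506659-89506908, minus strand: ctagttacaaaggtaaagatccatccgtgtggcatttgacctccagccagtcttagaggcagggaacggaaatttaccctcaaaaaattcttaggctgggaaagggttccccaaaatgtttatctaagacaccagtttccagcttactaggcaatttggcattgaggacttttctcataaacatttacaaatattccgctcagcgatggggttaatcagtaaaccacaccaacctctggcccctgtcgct
Nr1i3, chr1:171213720-171213969, plus strand: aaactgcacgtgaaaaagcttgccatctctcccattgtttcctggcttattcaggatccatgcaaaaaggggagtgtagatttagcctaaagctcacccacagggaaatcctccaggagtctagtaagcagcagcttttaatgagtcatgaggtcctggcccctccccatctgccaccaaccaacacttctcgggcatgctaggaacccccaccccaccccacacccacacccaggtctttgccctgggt

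The Rxra stretch holds 40 CpGs, of which 32 were measured, and the Ppara stretch holds 27, of which 13 were measured. The Nr5a2 stretch holds 6 CpGs, of which 2 were measured. Nr1h4 has 5 and Nr1i3 has 2, and none was a member position. The letters CCGG, the site of MspI, occur 4 times in the Rxra stretch and 2 times each in those of Ppara and Nr5a2. They are absent from the stretches of Nr1h4, Nr1i3, Nr1i2, Nr0b2 and Ppargc1a. Over 32851 promoter windows cut to the same length, the median was 6 CpGs and 47.1% held CCGG, which reads the same on both strands.

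Of the 15 annotated starts of the 10 genes, 9 had at least 5 positions, 2 had 1 to 4, and 4 had none. Starts at which the mean was under 2.5% numbered 6, from 4 genes, and so were not tested. Over all genes, 67.1% of 13444 starts with 5 positions were under 2.5%. Rxra, the partner with which many of the other receptors bind DNA, averaged 0.405% over 244 positions at its upstream start, and strain means there spanned 0.210 points. Its downstream start had no position. Ppara, the fatty acid sensor that drives fat oxidation in fasting, averaged 0.60% over 149 positions. Nr1h3, the oxysterol receptor LXR alpha, averaged 0.521% over 20 positions that its 2 neighbouring starts share.

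Pparg, best known as the master regulator of fat cells and low in lean liver, was also nearly free of methylation at its measured starts. Its upstream start averaged 1.01% over 91 positions (0.557% within 500 bp) and its next start 1.57% over 47, and the start farthest downstream had none. The windows of the upstream and the next start overlap and hold 94 positions in all. The widest strain span at these starts was 3.5 points. None of the 13 tested positions of Pparg was called different among strains, and its 6 body positions averaged 91.6% (adjusted p = 0.15, span 8.87 points). That level rests on few positions: with starts counted only within 500 bp the body averaged 23.5%.

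Nr0b2, which encodes SHP, a repressor without a DNA-binding domain, averaged 3.45% over 10 positions at its start. Strain means ran from 0.627% ± 0.419 in DBA/2J to 5.51% ± 4.99 in C57BL/6J and did not differ beyond the spread between samples (adjusted p = 0.53). Ppargc1a, which encodes a coactivator of mitochondrial and gluconeogenic genes, had no position at its single annotated start. A dense cluster lies at the upper edge of its 661605 bp span, the 5′ side of a gene on the minus strand, and runs on into the flank. The 347 positions at chr5:52112001-52117000 averaged 2.75%, with strain means from 2.19% in NZO/HlLtJ to 3.48% in PWK/PhJ. None of 124 tested positions there was called, beside 4.34% of tested positions in the genome. At levels so near 0 the 25 points needed for a call could hardly be reached, so the lack of calls says little.

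Most of the called strain differences lay at Nr5a2. Of 625 tested member positions, 67 (10.7%) were called different among strains, beside a background of 4.34% over 868232 tested positions of the genome. Nr5a2 gave 42 of these calls from 98 tested positions (42.9%). The other 9 genes gave 25 calls from 527 (4.74%). By gene these were 7 at Nr1h3, 4 each at Ppargc1a, Nr1i2 and Nr1i3, 3 each at Ppara and Rxra, and none at Pparg, Nr1h4 and Nr0b2. The 3 genes with 0 calls by the moderated F test had 53 tested positions together, of which 7 had an unadjusted p under 0.05 (15.4% of tested positions in the genome did). The median span of strain means was 20.1 points over tested member positions and 17.0 points over all tested positions. Of 34 tested member tiles 8 (23.5%) were called, beside 7.75% of all 58172 tested tiles. Nr5a2 alone gave 3 of these 8, from 5 tested tiles.

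Nr5a2 encodes LRH-1, a receptor that binds DNA alone and controls genes of bile acid and cholesterol metabolism. Of its 2 annotated starts the upstream one, at 136960448 on chromosome 1, had no position within 1 kb. The other start, at 136953630, lies inside the span of this minus-strand gene and is called the Nr5a2 start here. It had 53 positions within 1 kb, 3 upstream and 50 downstream, and distances below are counted from it. The 3 A/J samples stood at 41.4, 48.8 and 43.8% and the 3 NOD/ShiLtJ samples at 37.2, 40.8 and 38.1%. NZO/HlLtJ samples stood at 27.3, 30.7 and 19.8%. These first groups do not overlap: every A/J sample lay above every NOD/ShiLtJ sample, and every NOD/ShiLtJ sample above all samples of the other 7 strains. The 129S1/SvImJ samples were at 26.2, 22.7 and 22.4%, the C57BL/6J samples at 17.3, 19.8 and 23.9%, and the DBA/2J samples at 18.4, 18.2 and 15.3%. WSB/EiJ samples were at 13.7, 14.3 and 15.5%, PWK/PhJ samples at 11.6, 10.1 and 10%, and CAST/EiJ samples at 9.87, 7.02 and 9.11%. By mean the 3 wild-derived strains thus stood lowest, and all CAST/EiJ samples lay under all others.

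By strain mean the order at the Nr5a2 start was A/J 44.6% ± 3.76, NOD/ShiLtJ 38.7% ± 1.87, NZO/HlLtJ 25.9% ± 5.58, 129S1/SvImJ 23.8% ± 2.11, C57BL/6J 20.3% ± 3.33, DBA/2J 17.3% ± 1.74, WSB/EiJ 14.5% ± 0.929, PWK/PhJ 10.6% ± 0.859 and CAST/EiJ 8.67% ± 1.48. The strain means spanned 36 points (adjusted p = 6.3e-10), and 21.6 points over the positions within 500 bp of the start, which was also called. Samples of NZO/HlLtJ, 129S1/SvImJ and C57BL/6J overlap with each other, as do those of C57BL/6J and DBA/2J and those of DBA/2J and WSB/EiJ. Of the 3 member starts that were tested, this one and that of Nr1i2 were called, beside 16.8% of 4414 tested starts in the genome.

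**Figure D2:**
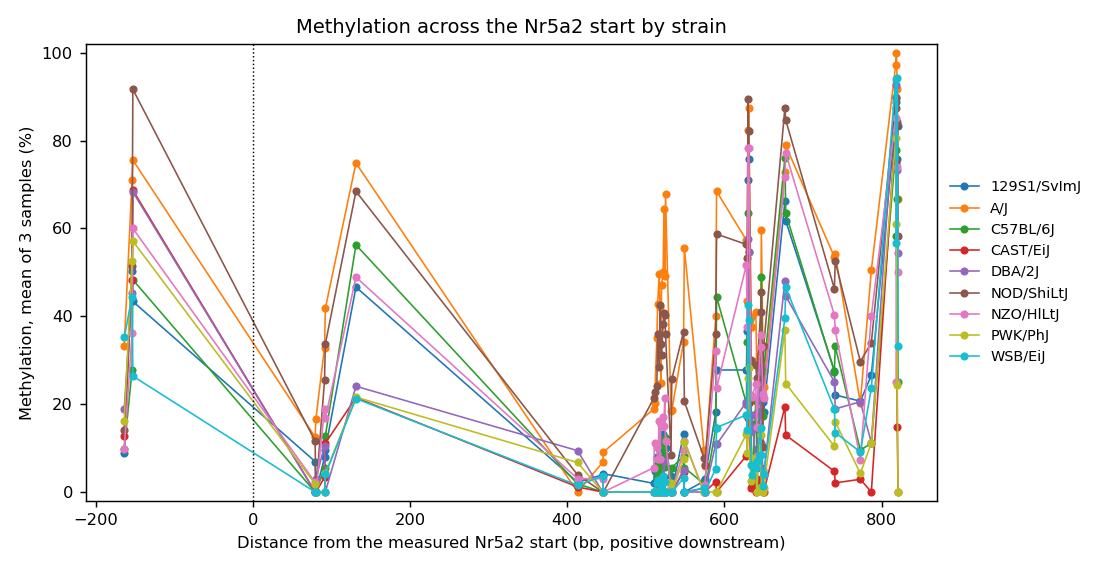
Methylation (y axis, %, mean of 3 samples) at each of the 53 positions within 1 kb of the Nr5a2 start, by distance in bp from that start (x axis, positive downstream), with a line for each strain. A/J and NOD/ShiLtJ run highest and CAST/EiJ and PWK/PhJ lowest between about 500 and 800 bp, and at the 4 positions from 818 to 821 bp strain means still run from 41.5% in PWK/PhJ to 88.9% in A/J.

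The difference at Nr5a2 was spread over the stretch 3′ of the start. In the printed sequence, the CpG 164 bases before the start averaged 17.6%. The next marked CpG was at 47.5 and 59.9% on its 2 strands. Neither CpG was called. From 79 to 446 bp downstream of the start 8 positions averaged 10.2%. A/J stood at 24.3% ± 6.44 and NOD/ShiLtJ at 17.9% ± 2.88 there, and WSB/EiJ was lowest at 3.80% ± 1.60. Most calls lay from 510 to 787 bp, where 29 of 37 tested positions were called. In that stretch A/J reached 43.7% ± 4.07 and NOD/ShiLtJ 38.3% ± 1.94, while DBA/2J stood at 11.8% ± 1.66, WSB/EiJ at 9.28% ± 1.30, PWK/PhJ at 6.16% ± 1.09 and CAST/EiJ at 3.15% ± 0.54. At 818 to 821 bp 4 positions averaged 69.0%, with PWK/PhJ at 41.5% ± 8.84, CAST/EiJ at 43.3% ± 15.4 and A/J at 88.9% ± 9.62. One of these positions was called, at 136952810, where the strain means spanned 79.5 points, from 14.8% in CAST/EiJ to 94.3% in WSB/EiJ (adjusted p = 0.0056). Farther in, at 1019 to 1046 bp, 7 positions averaged 86.3%, and strain means ran from 71.4% ± 10.9 in C57BL/6J to 95.2% ± 6.02 in NOD/ShiLtJ. The stretch that holds most calls thus lies between sequence at low and at high methylation.

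At 32 of the 53 positions around the Nr5a2 start the strains were called different. A/J had the highest strain mean at 23 of the 32 and NOD/ShiLtJ at 8. Both of these strains lay above all other 7 strain means at 27. CAST/EiJ and PWK/PhJ both lay under the mean of the strains at all 32. One of the positions, at 136953000, 630 bp downstream of the start, read 78.6, 77.3 and 91.7% in A/J and 15.4, 15.4 and 20% in CAST/EiJ (adjusted p = 3.6e-05). Many of these positions are the 2 strands of the same CpG and neighbours on the same fragments, so they are not independent.

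Deeper in the gene, Nr5a2 was free of methylation over a CpG-dense stretch. The 4 tiles from 136946001 to 136950000, with 113 positions, averaged between 0.763 and 2.09%. A single CpG within them went against this. At 136949726, 3904 bp downstream of the start, CAST/EiJ read 0, 0 and 0%, WSB/EiJ 7.14, 0 and 0%, and PWK/PhJ 14.3, 16.7 and 7.69%. The other 6 strains read between 41.7 and 70.6% there (adjusted p = 5.6e-08). The position on its other strand differed in the same way, with a strain span of 60.7 points (adjusted p = 4.2e-04). Whether these strains differ in sequence at this CpG was not tested.

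A tile of Nr5a2 41.1 kb downstream of the start, chr1:136912001-136913000 with 10 positions, had another order of strains. The CAST/EiJ samples, lowest at the start, stood highest there, at a mean of 71.7% ± 13.7, and the lowest of them, 62.6%, lay above the highest sample of any other strain, 39.1%. A/J, highest at the start, was next at 35.1% ± 4.34, followed by PWK/PhJ at 33.0% ± 7.48 and C57BL/6J lowest at 10.4% ± 4.58 (span 61.3 points, adjusted p = 5.9e-06). At its position 136912459 CAST/EiJ read 88.2, 100 and 90.9%, C57BL/6J 6.67, 0 and 0%, and all other samples 57.9% or less (adjusted p = 9.8e-06). Over the whole body of 148 positions the strain means spanned 5.09 points, under the 10 needed for a call (adjusted p = 0.0053). Of these 148 positions, 113 lie in the stretch free of methylation described above, which narrows the span of the body. CAST/EiJ had the highest and C57BL/6J the lowest body mean, as in the tile from 136912001. With starts counted within 500 bp the span of the body was 9.28 points.

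**Figure D3:**
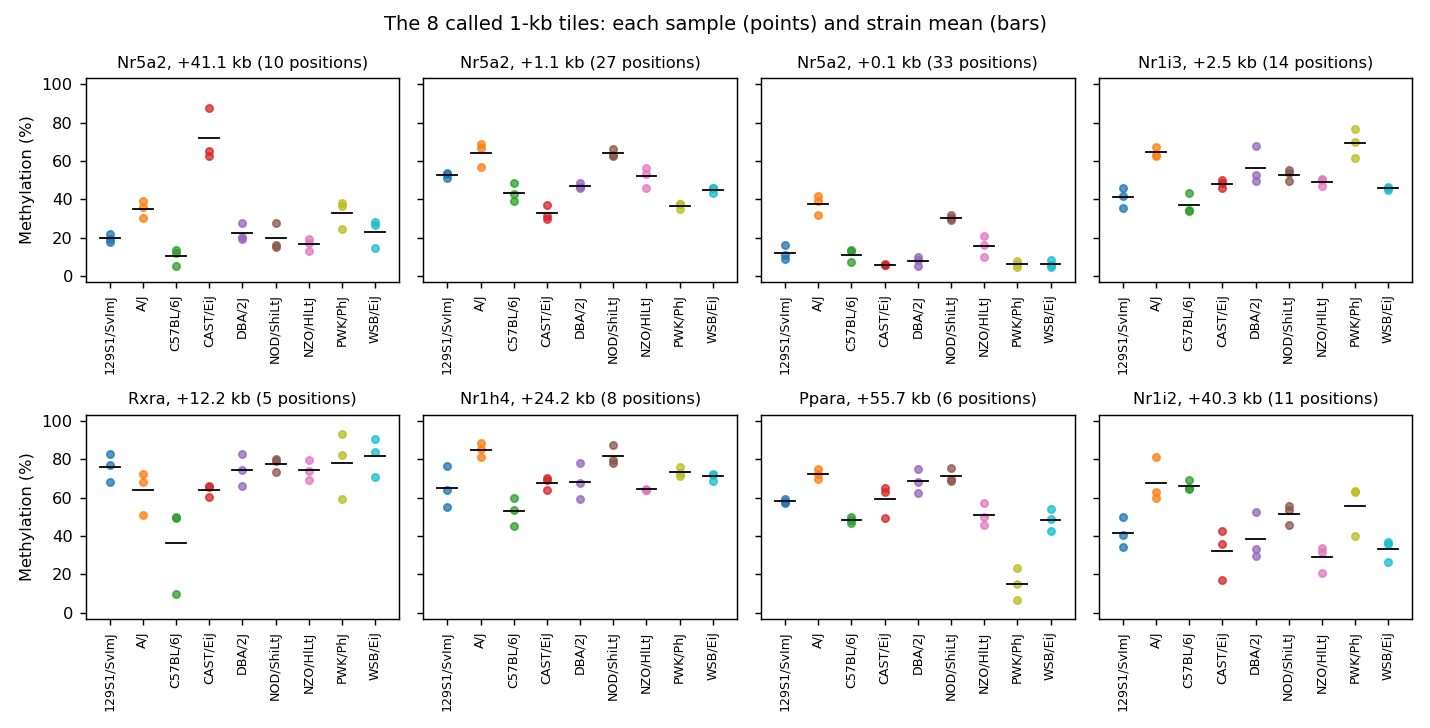
Methylation (y axis, %) of each of the 8 called 1 kb tiles at the 10 genes, with the distance of the tile's centre from the nearest annotated start and its number of positions. Points are samples (3 per strain, strains on the x axis) and bars are strain means. CAST/EiJ stands above all others in the Nr5a2 tile 41.1 kb from its start, and PWK/PhJ stands below all others in the Ppara tile.

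The bodies of 4 of the 9 genes tested were called different, beside 14.2% of 11934 tested bodies in the genome. Nr1i3 encodes CAR, which with PXR switches on drug-metabolising enzymes. Its body averaged 71.8% over 28 positions, with A/J at 80.6% ± 0.748 and PWK/PhJ at 80.3% ± 1.91 above C57BL/6J at 62.7% ± 1.80 and 129S1/SvImJ at 63.9% ± 2.39 (adjusted p = 6.3e-06). Its called tile was chr1:171216001-171217000, where the C57BL/6J mean was 37.3% ± 5.39 and the PWK/PhJ mean 69.4% ± 7.47 (14 positions, adjusted p = 8.9e-05). At position 171216884 in Nr1i3, 2914 bp downstream of its start, C57BL/6J read 0, 29.4 and 33.3%, and PWK/PhJ read 93.8, 76.9 and 87.5% (adjusted p = 0.034). These samples do not overlap, and all other strain means lay between 41.2 and 67.9%. The neighbouring tile of 11 positions was methylated at 93.9% in the mean, with a strain span of 6.56 points (adjusted p = 0.58). The start of Nr1i3 had 4 positions at 12.2%, too few for a test.

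Nr1i2 encodes PXR, the receptor for drugs and other foreign compounds. Its body averaged 57.3% over 24 positions, from 48.3% ± 4.13 in NZO/HlLtJ to 68.5% ± 3.40 in A/J (adjusted p = 0.0054). Its called tile, chr16:38254001-38255000 with 11 positions, lies 40.3 kb downstream of the start. A/J samples there read 81.2, 62.7 and 59.7% and C57BL/6J samples 64.8, 64.5 and 69.4%, while NZO/HlLtJ samples read 33.7, 31.8 and 20.9% and CAST/EiJ samples 42.8, 36 and 17.3% (adjusted p = 0.0015). The high and the low strains do not overlap. At position 38273027 in Nr1i2, PWK/PhJ read 100, 100 and 82.6% and C57BL/6J read 25% in each sample (adjusted p = 0.0024).

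The start of Nr1i2, with 7 positions, was low in all strains and highest in PWK/PhJ. PWK/PhJ samples stood at 28.6, 11.4 and 19.0%, all A/J and DBA/2J samples at 0%, and the remaining strain means between 1.30 and 8.33% (adjusted p = 0.014, span 19.7 points). PWK/PhJ overlapped with NOD/ShiLtJ, whose highest sample reached 17.9%. This call rests on PWK/PhJ replicate 2, without which the span was 15.2 points (adjusted p = 0.072).

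**Figure D4:**
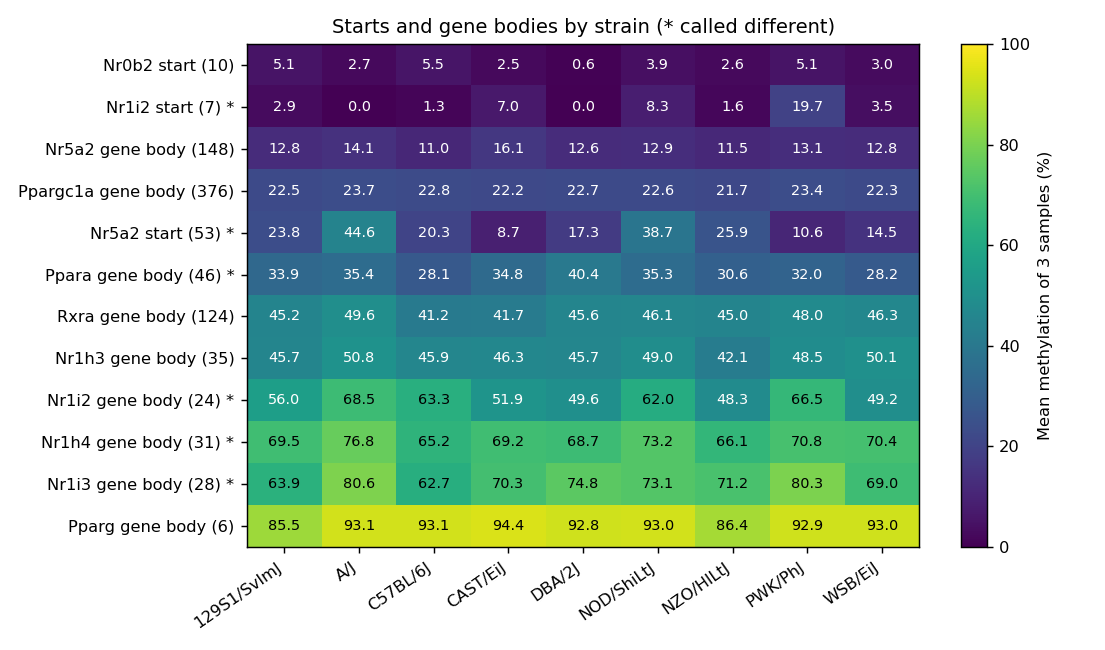
Mean methylation of 3 samples (colour and printed value, %) for each tested start and gene body (rows, with the number of positions) in each strain (columns). Stars mark regions called different: the Nr5a2 and Nr1i2 starts and the bodies of Ppara, Nr1i2, Nr1h4 and Nr1i3.

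Nr1h4 encodes FXR, the bile acid receptor, and was measured almost only in its body, which averaged 70.0% over 31 positions. A/J was highest at 76.8% ± 2.62 and C57BL/6J lowest at 65.2% ± 1.64 (adjusted p = 0.0028, span 11.6 points). Its called tile, chr10:89482001-89483000 with 8 positions, ran from 52.8% ± 7.21 in C57BL/6J to 85.1% ± 3.73 in A/J (adjusted p = 6.1e-04). Without the strain C57BL/6J the tile's span fell to 20.8 points, under the 25 required (adjusted p = 0.0066). The adjoining tile was at 93.6%, with a strain span of 6.13 points (adjusted p = 0.61). None of the 27 tested body positions was called on its own.

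The body of Ppara averaged 33.2% over 46 positions, from 28.1% ± 2.51 in C57BL/6J to 40.4% ± 3.58 in DBA/2J (adjusted p = 0.0081). With the start counted only within 500 bp, the body averaged 18.4% and its span was 7.28 points, which ended the call (adjusted p = 0.017). PWK/PhJ stood apart in a tile 55.7 kb downstream of the start, chr15:85791001-85792000 with 6 positions. Its samples there averaged 15% ± 8.33 and none was above 23.3%, while the lowest sample of any other strain was 42.7% and A/J averaged 72.3% ± 2.44 (span 57.3 points, adjusted p = 2.8e-07). At position 85791018 in Ppara, PWK/PhJ read 25, 0 and 0%, and the other samples ranged from 28.6 to 100% (adjusted p = 3.7e-04). All 3 called positions of Ppara lay in this tile.

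Rxra had a called tile 12.2 kb past its downstream start, chr2:27721001-27722000 with 5 positions. C57BL/6J averaged 36.3% ± 23.2 there, and the other strain means lay between 63.9 and 81.7% (adjusted p = 0.029). The call was lost without C57BL/6J replicate 1 (adjusted p = 0.12), with the strain C57BL/6J left out (span 17.8 points, adjusted p = 0.39) and in the fit with a replicate block (adjusted p = 0.095). At its position 27721339 all C57BL/6J samples of Rxra read 0% and no other sample was under 50% (adjusted p = 4.6e-05). The Rxra body as a whole averaged 45.4% over 124 positions with a span of 8.38 points, too narrow for a call (adjusted p = 0.0026).

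No strain difference was called over the whole bodies of Nr1h3 and Ppargc1a. Nr1h3 averaged 47.1% over 35 positions (span 8.67 points, adjusted p = 0.13), or 30.7% with a span of 4.27 points over positions listed in all 27 samples. Ppargc1a averaged 22.7% over 376 (span 1.97 points, adjusted p = 0.31). Most of these 376 positions lie in its 5′ cluster of low methylation, which lowers this level and narrows the span. Of 199 tested body positions of Ppargc1a 4 were called. The widest span was at 51799149 in Ppargc1a, where A/J read 100% in all 3 samples and C57BL/6J 0% in both samples that list it (adjusted p = 0.02). PWK/PhJ samples read 50, 0 and 100% there, and CAST/EiJ 0 and 50%, so mice of the same strain covered the whole scale. At 52051977 in Ppargc1a, CAST/EiJ read 0% in both samples that list it, and the other strain means lay between 57.1 and 81.5% (adjusted p = 2.1e-04).

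The calls at Nr1h3 mostly belong to its neighbour. Of the 7 called positions, 5 lie at chr2:91182472-91182882 within Madd, which adjoins Nr1h3, in a stretch of 64 positions. PWK/PhJ averaged 16.4% over them, and no other strain was above 1.18%. At 91182848 in the Nr1h3 flank PWK/PhJ read 100, 66.7 and 100%, and no other sample was above 11.1%. Without PWK/PhJ none of these 5 positions would have been tested, since the other strains averaged no more than 2.5%, so no p is given for them. All 141 flank positions of Nr1h3 lie in Madd or Acp2.

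Positions set apart were those at which all samples of a strain lay at least 25 points above or below all other samples, with an adjusted p under 0.05. There were 10 among the members, beside 0.529% of tested positions in the genome. They were 4 at Nr1h3, all in Madd and high in PWK/PhJ, 3 at Nr5a2, all high in CAST/EiJ, 2 at Rxra and 1 at Ppargc1a. All 4 at Nr1h3 and 1 at Rxra were tested only because of the high strain, since the mean of the other strains was not above the 2.5% needed for a test. Such positions had to differ once tested, and their count supports nothing. Among the 67 called positions 6 were tested only because of their highest strain, 5 of them at Nr1h3, and 1 at Nr1h3 only because of its lowest, the other strains being too close to 100%.

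A/J alone had the highest strain mean at 30 of the 67 called positions (44.8%), beside 13.1% of called positions in the genome, and strains tied for the highest mean at 5. A/J was highest in 5 of the 8 called tiles and 3 of the 4 called bodies, beside 16.2 and 21.2% in the genome. Among these tiles those from 136952001 and 136953001 adjoin each other at the Nr5a2 start. Every called body contains a called tile, so counts of tiles and of bodies are not independent for any strain. In the Nr1i3 body A/J (80.6%) stood barely above PWK/PhJ (80.3%). Of the 30 positions 23 come from the Nr5a2 start, whose positions are not independent, and outside that start A/J alone was highest at 7 of 35 called positions (20%). C57BL/6J was lowest in 4 of the called tiles and 3 of the called bodies, beside 14.9 and 18.9%. Averaged over all 1705 positions, A/J stood at 18.4% ± 0.272, PWK/PhJ at 17.8% ± 0.758, NOD/ShiLtJ at 17.3% ± 0.186 and C57BL/6J lowest at 15.6% ± 0.624. Over all positions of the genome the strain means ran only from 30.3% ± 0.299 in C57BL/6J to 31.6% ± 0.161 in PWK/PhJ, with A/J next at 31.4% ± 0.094.

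Which positions could be read also differed by strain. At the 10 genes, 54 positions listed in all samples of the other strains were missing from all PWK/PhJ samples, which is 3.45% of such positions (3.93% in the genome). For CAST/EiJ there were 30 (1.97%, against 4.0%). For NOD/ShiLtJ there were 18 (1.19%, against 0.167%), of which 12 were at Rxra and 6 at Ppargc1a. Positions listed in every sample of a single strain and in no other numbered 55 for PWK/PhJ and 46 for CAST/EiJ. In the promoter windows of all genes, 1.51% of positions listed in CAST/EiJ and 1.49% of those in PWK/PhJ were not at a CpG of the reference, beside 0.0463% in C57BL/6J and 0.457 to 0.626% in the other strains. The part of sequence differences in the strain differences above was not tested.

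By the rule for likeness, the called tiles elsewhere in the genome whose 9 strain means had the highest Pearson correlation with those of a member tile were listed. For the Nr5a2 tile at its start the nearest were in Rin2 (Pearson's r = 0.943 over 9 strains), Lrp1 (0.925) and Igsf21 (0.92). The CAST/EiJ-high tile of Nr5a2 was most like tiles in Fat1 (0.99), Rictor (0.985) and Spns2 (0.977), and the PWK/PhJ-low tile of Ppara most like tiles in Klc2 (0.957) and Cap2 (0.943) and a tile outside genes (0.935). For the other 5 called tiles, the 3 most alike had r between 0.894 and 0.944. These values describe 9 points taken from the same 27 libraries and the best of 4506 called tiles. Where a single strain stands far apart, it weighs heavily in r, which then says little about the order of the others.

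Genes of the pathways that these receptors act in were read from lists of their targets and partners. Among 10 bile acid genes, 8 bodies were tested and 6 called, beside 14.2% of tested bodies in the genome. Their median span was 19.7 points, beside 6.01 over all tested bodies. The called bodies held only 5 to 15 positions each, and the background was not matched for number of positions or level. The widest was Cyp7a1, the rate-limiting enzyme of bile acid synthesis, from 48.2% ± 3.44 in C57BL/6J to 83.1% ± 4.4 in WSB/EiJ (15 positions, adjusted p = 5.9e-05). Cyp8b1, which sets the ratio of bile acid species, ran from 12.4% ± 2.26 in DBA/2J to 40.5% ± 5.83 in NZO/HlLtJ (6 positions, adjusted p = 0.0014). Slc10a1, the bile acid uptake carrier, ran from 43.6% ± 1.91 in CAST/EiJ to 70.1% ± 6.18 in NZO/HlLtJ (12 positions, adjusted p = 2.7e-04). Abcb11, the bile salt export pump, ran from 54.6% ± 5.34 in NOD/ShiLtJ to 78.6% ± 7.45 in DBA/2J (5 positions, adjusted p = 0.037). Cyp27a1, an enzyme of the alternative route of bile acid synthesis, ran from 71.9% ± 3.55 in C57BL/6J to 87.2% ± 0.981 in A/J (14 positions, adjusted p = 0.046). No start of the list was called, of 3 tested.

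Among 24 other nuclear receptors, 4 of 21 tested bodies were called (median span 5.26 points) and 1 of 4 tested starts, beside 14.2% of bodies and 16.8% of starts in the genome and a median body span of 6.01 points. The count of bodies is near that background. The widest was Nr2f6, an orphan receptor, from 26.5% ± 2.74 in C57BL/6J to 49.7% ± 2.64 in CAST/EiJ (adjusted p = 1e-06), followed by the oestrogen receptor gene Esr1, from 45.1% ± 3.36 in WSB/EiJ to 61.2% ± 2.39 in A/J (adjusted p = 0.0063). The called start was the upstream start of Hnf4a, a hepatocyte receptor, with 6 positions, at 17.2% ± 3.35 in PWK/PhJ and 2.89% ± 2.11 in NZO/HlLtJ (adjusted p = 0.033). Of 8 genes of the drug response, 4 bodies were tested and Alas1, the haem synthesis enzyme, was called, from 6.89% ± 2.37 in WSB/EiJ to 24.0% ± 4.94 in CAST/EiJ (adjusted p = 3.0e-04). No body was called among 12 tested of coregulators (median span 3.66 points), 6 of fatty acid oxidation and other PPARA targets (7.47 points) and 8 of LXR targets (7.26 points).

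Of 9 tested starts of marker genes of liver cells 4 were called, beside 16.8% of starts in the genome. Among the 4 tested starts of hepatocyte markers, the upstream start of Hnf4a and the start of Apob were called. The downstream start of Hnf4a, with 18 positions, was not called (span 8.16 points), nor was the start of the fibrinogen gene Fgb (10 positions, span 4.03 points). Apob ran from 3% in NOD/ShiLtJ to 21.7% in PWK/PhJ. Among markers of other liver cells, both tested starts of bile duct genes, those of Krt7 and Epcam, were called. Krt7 was highest in CAST/EiJ (35.2%) and lowest in DBA/2J (16.8%), and Epcam highest in CAST/EiJ (16.0%) and lowest in WSB/EiJ (5.59%). The starts of the endothelial gene Kdr and the stellate cell genes Lrat and Des were not called, and no leukocyte marker start had 5 positions. Of 15 tested bodies of the marker genes 4 were called, beside 14.2% in the genome. They were the hepatocyte enzyme gene Cps1, from 42.8% in WSB/EiJ to 74.5% in A/J, the leukocyte gene Ptprc, from 56.3% in PWK/PhJ to 73.4% in CAST/EiJ, and the bile duct genes Krt19, from 34.6% in A/J to 69.2% in PWK/PhJ, and Sox9, from 33.7% in WSB/EiJ to 49.3% in DBA/2J. No body was called among 4 endothelial and 3 stellate cell genes tested. The part of cell mixture in the strain differences was not tested.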

How the data were processed

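Per the labels' protocols, genomic DNA of hepatocytes was cut with MspI, ligated to adapters, bisulfite-treated and amplified (RRBS). Trim Galore 0.6.3, Bowtie2 and Bismark 0.22 and the builds GRCm38 and mm10 are named in the submitters' processing notes. The authors deposited for each sample a list of positions with percent methylation and no coverage, so any coverage filter is not known here. Both strands of a CpG are separate positions.

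From these, positions listed in at least 2 of 3 samples of every strain were kept. Missing values were dropped. Values were set on a log2((percent + 5)/(100 - percent + 5)) scale and tested with a moderated one-way F test, which gave the p-values of limma 3.58.1 (R 4.3.3) on complete positions and was tested on simulated data. The code used pandas 2.3.3, scipy 1.17.1 and numpy 2.4.6 under Python 3.11.15. Gene spans and starts came from GRCm38.p6 tables, and each annotated start was its own feature, a choice made after the tables were seen. Named were all 10 genes, every called tile, for each gene a called position of widest span, up to 8 other genes by span, and the 3 most alike tiles, shown in full for 3 tiles. Some further positions and markers were named after their values were seen. Members and lists were chosen with earlier results of these data known. Alternatives were another offset, filter, span, window, tile and position set, untransformed percent, a replicate block and each sample left out. Figures were drawn with matplotlib 3.10.9.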

Additional observations from a re-analysis of the deposited data

How the results depend on the processing

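Of 1415 recomputed values of 43 results, 1384 kept their call or level. Another 17 levels or counts shifted by more than the replicate spread or 1.5 times, 11 calls were lost and 3 were gained. Many of the kept values are mean levels with a single sample of the 27 left out. Such means could hardly move by the replicate spread, so the count says little about how stable the levels are. All shifts in mean level came from counting other positions. With each sample left out in turn, called member positions numbered 55 to 68 (67 with all samples), tiles 7 to 9 (8), starts and bodies 5 to 7 (6) and positions set apart 9 to 14 (10). With a minimum span of 10 points 14 tiles were called, and with 25 points 1 start or body, the Nr5a2 start. Over positions listed in all 27 samples, 5 positions were set apart. Alternatives chosen after seeing the data were leaving out C57BL/6J, whose files name the mitochondrial chromosome differently, leaving out positions inside another gene (62 called) and leaving out Nr5a2 (25 called). Without C57BL/6J, 62 positions, 6 tiles and 6 starts and bodies were called. Among these alternatives the body of Pparg was called only without DBA/2J replicate 2 (span 10.4 points, adjusted p = 0.045). Body levels depended on which positions were counted. Over positions listed in all 27 samples, Nr1h3 fell to 30.7%, Ppara to 25.5% and Rxra to 42.0%. In that set Ppargc1a fell to 19.6%, Nr1h4 to 67.5% and Nr5a2 to 11.8%. With starts counted within 500 bp, Pparg fell to 23.5%, Ppara to 18.4%, Rxra to 32.1% and Nr1i2 to 45.1%, while Nr5a2 rose to 15.4%.

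The replicate numbers did not pair the samples. Deviations from strain means of same-numbered samples correlated between -0.011 and 0.012 (76 pairs), and those of other samples between -0.0109 and 0.0116 (248 pairs). With the replicate number as a block, 51 positions, 7 tiles and 6 starts and bodies were called. Depth is unknown, so the error of a single position rests on 3 samples per strain.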
